A study of Mus musculus with 45 samples.

Results

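Genes of eicosanoid synthesis were followed in the livers of mice given TCDD, the dioxin 2,3,7,8-tetrachlorodibenzo-p-dioxin, a persistent contaminant and ligand of the aryl hydrocarbon receptor. The 10 genes were chosen by name: the lipoxygenases Alox5, Alox12 and Alox15, the 5-lipoxygenase activating protein Alox5ap, the leukotriene C4 synthase Ltc4s, the cyclooxygenases Ptgs1 and Ptgs2, the prostaglandin D synthases Ptgds and Hpgds, and the prostaglandin E synthase Ptges. They were chosen with earlier results of these data known. All 10 were among the 17464 genes, of 39179 listed, that had more than 4 reads in at least 1 liver. Ptgs2 passed this limit only through 1 liver given 3 µg/kg and Alox5 only through 1 given 0.01 µg/kg, each with 5 reads. Both were therefore tested only because a dosed liver was high, which limits every test and count that includes them. Liver RNA of 45 female C57BL/6 mice was sequenced, with 5 mice in each of 9 groups. By gavage they were given either sesame oil alone or, in it, 30, 10, 3, 1, 0.3, 0.1, 0.03 or 0.01 µg/kg of TCDD, at intervals of 4 days over 28 days and starting at postnatal day 28. The labels call the mice of every group ovariectomized and also carry the word daily, neither of which stands in the methods, and all groups share strain, sex and vehicle. Each library came from whole liver of 1 mouse, so that a lower level per cell and fewer cells of the type that holds an RNA cannot be told apart. Replicate numbers given here only name the livers, since the labels do not number them.

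Eicosanoids are lipid mediators made from arachidonic acid after phospholipases free it from membranes. Cyclooxygenases convert it to prostaglandin H2, from which terminal synthases make prostaglandins D2, E2, F2α, prostacyclin or thromboxane. Lipoxygenases convert it to hydroxy fatty acids and, with 5-lipoxygenase and its activating protein, to leukotriene A4, the precursor of leukotrienes B4 and C4. In liver these enzymes are known chiefly from Kupffer cells, infiltrating leukocytes, platelets and endothelium rather than from hepatocytes.

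The 45 libraries held 11.8 to 56.5 M reads on genes, with a median of 17.2 M, and 3 reads in a library corresponded to 0.0569 to 0.267 CPM (counts per 1000000 counted reads, scaled with TMM factors). The TCDD targets Cyp1a1, Cyp1a2, Cyp1b1, Tiparp and Nqo1 were all higher at 30 µg/kg. The liver named replicate 5 of the 0.01 µg/kg group stood apart from its group, with 1212 CPM of summed Kupffer cell and macrophage markers against 213 to 380 in the other 4, 19.8 CPM of neutrophil markers against 1.33 to 1.91, and 69.7 CPM of Cyp1a1 against 1.18 to 4.54. In this liver 5 of the 10 eicosanoid genes were above and 1 was below the other 4 livers of the group. Without it the log2 fold changes at 0.01 µg/kg moved from 0.37 to -0.13 for Ptgs1, from 0.37 to -0.15 for Alox5ap, from 0.41 to -0.10 for Hpgds and from 0.46 to -0.19 for Ltc4s, and no member was called with or without it.

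Differences of eicosanoid genes from vehicle passed the test only at 3 µg/kg and above, and all that passed were increases apart from Ptgds. Alox5, Alox15, Ltc4s and Hpgds passed at no dose. A dose at which a gene did not pass is not shown to have left it unchanged. Each dose was compared with vehicle by edgeR's quasi-likelihood test, and a gene was called at a Benjamini-Hochberg adjusted p under 0.05 over the 17464 genes. From 0.01 to 1 µg/kg 0 of the 50 tests of members (5 doses) passed, by edgeR and by DESeq2, and 2 had an unadjusted p under 0.05, both for Ptgds. In order of rising dose, the shares of all genes called higher there were 0.0%, 0.0344%, 0.0229%, 0.321% and 1.24% and the shares called lower were 0.0%, 0.0229%, 0.0%, 0.143% and 0.515%. At 3 µg/kg 1 member (Ptgs1) was higher and 1 (Ptgds) lower, against 4.34% and 3.2% of all genes. At 10 µg/kg 3 members (Alox5ap, Alox12, Ptgs1) were higher and 1 (Ptgds) lower, against 8.47% and 7.47%. At 30 µg/kg 5 members (Alox5ap, Alox12, Ptgs1, Ptgs2, Ptges) were higher and 1 (Ptgds) lower, against 15.5% and 14.1%. The median log2 fold change of the 10 members at 30 µg/kg was 1.24, with 9 of 10 positive, and that of all genes was 0.02. Of the 10 members 4 were not called. The values of Alox5 and Ptgs2 rest on 8 and 11 reads against 1 in vehicle. The share of all genes with a positive value was not counted. The members were chosen with earlier results of these data known, so these counts beside all genes describe the list and test nothing.

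**Figure D1:**
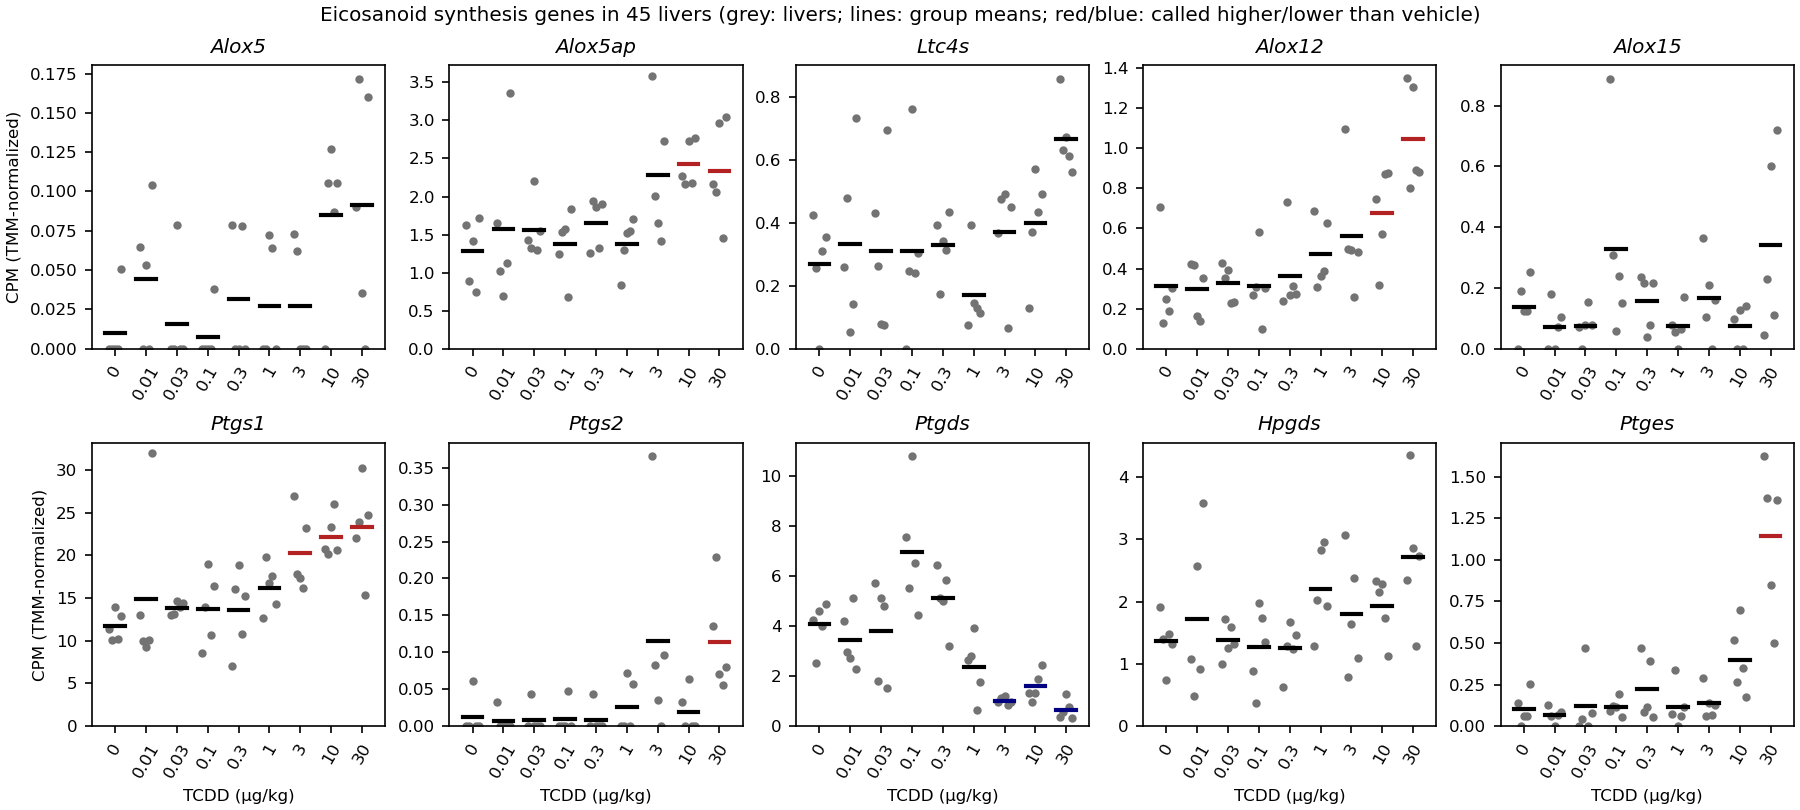
TMM-normalized CPM (y axis, linear, from 0, a scale of its own for each gene) of the 10 eicosanoid genes in each of the 45 livers against TCDD dose in µg/kg (x axis, 0 is vehicle). Grey points are livers, lines are means of 5 livers, and red or blue lines mark doses called higher or lower than vehicle by edgeR, as for Ptgds at 3, 10 and 30 µg/kg and for Ptges at 30 µg/kg.

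A test of any difference among the 8 doses and vehicle called 5 of the 10 members, against 28.8% of all genes. These were Ptgds with an adjusted p of 2.04e-09, Ptges with 6.39e-07, Alox12 with 0.000413, Ptgs1 with 0.00566 and Ptgs2 with 0.00628 by edgeR's F test. Ptgs2 entered the tests through 1 dosed liver with 5 reads, so its call here partly rests on the value that let it in. Alox5ap, which was called at both 10 and 30 µg/kg against vehicle, had an adjusted p of 0.0524 in this test. Between neighbouring doses, edgeR called 0 of the 70 tests of the 10 members over 7 steps, whereas 1.36% of all genes were called in at least 1 step. Of these tests 12 had an unadjusted p under 0.05, and the lowest adjusted p was 0.171, for Ptges from 10 to 30 µg/kg.

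**Figure D2:**
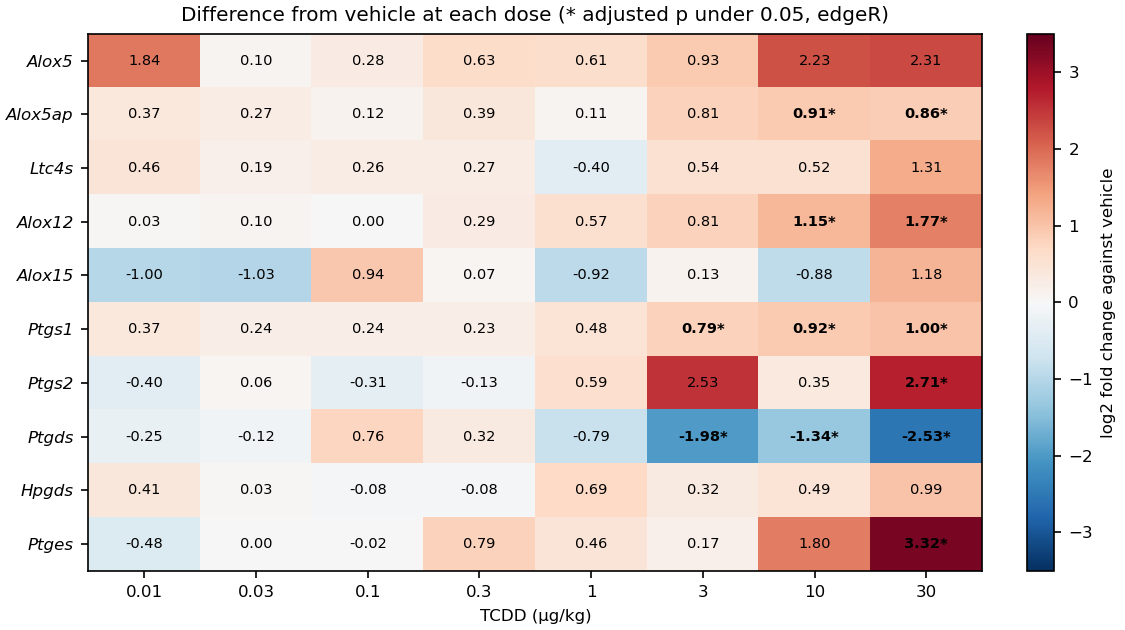
Log2 fold change against vehicle (colour and printed value) for each of the 10 eicosanoid genes (rows) at each of the 8 TCDD doses (columns). Asterisks and bold type mark an edgeR adjusted p under 0.05, and all 12 such cells lie at 3, 10 and 30 µg/kg.

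Of the cyclooxygenases, Ptgs1 was about doubled at the highest dose and Ptgs2 remained at a few reads per liver. Ptgs1 (chr2:36230426-36252272, plus strand), which encodes the constitutive cyclooxygenase 1, was measured at 11.3, 10.1, 13.9, 10.1 and 12.8 CPM in the vehicle livers. The livers given 3 µg/kg held 27, 17.8, 17.4, 16.2 and 23.2 CPM, those given 10 µg/kg 20.7, 20.1, 23.3, 26.1 and 20.6 CPM, and those given 30 µg/kg 22, 23.9, 30.3, 15.3 and 24.8 CPM. Every liver at these 3 doses was above every vehicle liver, and the lowest of them was replicate 4 of the 30 µg/kg group. In order of dose, the log2 fold changes were 0.79 (SE 0.25, adjusted p = 0.0395 by edgeR), 0.92 (SE 0.25, adjusted p = 0.00731) and 1.00 (SE 0.25, adjusted p = 0.00188). The 1 µg/kg livers held 12.7 to 19.8 CPM, overlapping vehicle, with a log2 fold change of 0.48 (SE 0.25, adjusted p = 0.417). The call at 3 µg/kg was lost, with edgeR adjusted p from 0.0604 to 0.114, without any 1 of vehicle replicates 1, 2, 4 and 5 and 3 µg/kg replicates 1 and 5, while the calls at 10 and 30 µg/kg stood without any single liver.

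Ptgs2 (chr1:150100031-150108227, plus strand) encodes the inducible cyclooxygenase 2. It was at 0 CPM in 4 vehicle livers and at 0.0616 CPM, a single read, in replicate 3. The 3 µg/kg livers held 0.365, 0.0828, 0.035, 0 and 0.0965 CPM, the 10 µg/kg livers 0.0325, 0, 0.0634, 0 and 0 CPM, and the 30 µg/kg livers 0.135, 0.229, 0.0707, 0.0557 and 0.0801 CPM. All 5 livers at 30 µg/kg had at least 1 read, and replicate 4 lay below the vehicle liver with a read. The fitted log2 fold change at 30 µg/kg was 2.71 (SE 0.98, adjusted p = 0.0325 by edgeR), resting on 11 reads in all against 1, for which the ratio of pooled CPM was 9.17 with an exact 95% interval from 1.33 to 395 that covers counting error only. At 3 µg/kg 13 reads were counted, 5 of them in replicate 1, and the log2 fold change of 2.53 was not called (adjusted p = 0.106). The call at 30 µg/kg was lost with DESeq2 (adjusted p = 0.121) and, at edgeR adjusted p of 0.0579 to 0.0971, without any 1 of vehicle replicates 1, 2, 4 and 5 and 30 µg/kg replicates 1 and 2.

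The prostaglandin D synthases differed from each other within the same livers. Ptgds (chr2:25466709-25470046, minus strand), the lipocalin-type enzyme that also carries small lipophilic molecules, was the only member called lower. It was at 4.25, 2.54, 4.62, 4.02 and 4.90 CPM in the vehicle livers. The 3 µg/kg livers held 0.95, 1.12, 1.19, 0.838 and 0.965 CPM, the 10 µg/kg livers 1.33, 0.949, 1.33, 1.87 and 2.46 CPM, and the 30 µg/kg livers 0.361, 0.572, 1.27, 0.78 and 0.321 CPM. All 5 livers of each group at these doses lay below every vehicle liver. In order of dose, Ptgds fell by 1.98 (SE 0.36, adjusted p = 0.000181 by edgeR), by 1.34 (SE 0.34, adjusted p = 0.00534) and by 2.53 (SE 0.38, adjusted p = 1.7e-06) on the log2 scale, the last being 5.79-fold lower. These 3 calls stood without any single liver and under every alternative tried. At 0.1 µg/kg 4 of 5 livers were above the highest vehicle liver, at 7.56, 5.52, 10.8, 6.53 and 4.46 CPM, and the log2 fold change of 0.76 was not called (adjusted p = 0.893). At 1 µg/kg the values were 2.67, 2.81, 3.91, 0.642 and 1.76 CPM, and 2 of these livers were below the lowest vehicle liver (log2 fold change -0.79, adjusted p = 0.299).

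Hpgds (chr6:65117293-65144908, minus strand) encodes the glutathione-dependent hematopoietic prostaglandin D synthase, known from mast cells, macrophages and helper T cells. It was at 1.91, 1.4, 0.74, 1.49 and 1.31 CPM in the vehicle livers and at 2.34, 4.35, 2.86, 1.28 and 2.72 CPM at 30 µg/kg. At 30 µg/kg 4 of the 5 livers were above every vehicle liver and replicate 4 was within their range. The log2 fold change was 0.99 (SE 0.39, adjusted p = 0.0537 by edgeR), just outside the call. It was called with DESeq2 (adjusted p = 0.0415) and without 30 µg/kg replicate 4 (adjusted p = 0.023). Over each liver left out in turn, the edgeR adjusted p ran from 0.023 to 0.185. The log2 ratio of Hpgds to Ptgds within each liver was -1.53 ± 0.66 (SD, n = 5) in vehicle and 1.94 ± 0.98 (SD, n = 5) at 30 µg/kg, a difference of 3.47 with no overlap (exact two-sided permutation p = 0.00794, the smallest that 5 against 5 allows, and 0.0238 after adjustment over 3 ratios). From 0.1 to 10 µg/kg, in order of dose, this log2 ratio averaged -2.49, -1.97, 0.05, 0.63 and 0.29.

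Ptges (chr2:30889471-30929863, minus strand), the microsomal prostaglandin E synthase that makes prostaglandin E2, had the largest fitted increase of the 10 genes. It was at 0.142, 0, 0.0616, 0.0619 and 0.253 CPM in the vehicle livers, 0.519, 0.264, 0.697, 0.348 and 0.175 CPM in those given 10 µg/kg, and 1.62, 1.37, 0.849, 0.501 and 1.36 CPM in those given 30 µg/kg. All 5 livers at 30 µg/kg were above every vehicle liver, and 4 of 5 were so at 10 µg/kg. The fitted log2 fold change was 3.32 (SE 0.60, adjusted p = 3.77e-05 by edgeR) at 30 µg/kg and 1.80 (SE 0.66, adjusted p = 0.0576) at 10 µg/kg. The vehicle livers held 0 to 5 reads each and 9 in all, against 110 in all at 30 µg/kg. The size of these fold changes therefore depends on few vehicle reads. The 3 µg/kg livers held 0.0621 to 0.292 CPM, with a log2 fold change of 0.17 (adjusted p = 0.94). The value at 10 µg/kg was called with DESeq2 (adjusted p = 0.0491) and by edgeR in a fit of vehicle and this dose alone (adjusted p = 0.0459). With each liver left out in turn, its edgeR adjusted p ran from 0.0292 to 0.146. The call at 30 µg/kg stood without any single liver.

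The aryl hydrocarbon receptor and its partner ARNT are known to bind the dioxin response element, whose core is GCGTG. Of the 10 members, 8 had an entry in the RefSeq promoter table (GRCm38.p6), and the 250 bases before the start were searched for GCGTG on both strands. It was found in 2 of the 8, Ptges and Ptgs2, and in 28.2% of the 32851 promoters of the table, so that its presence is common. The 2 windows that held it are shown so that the motif can be seen in its surroundings, 5′ to 3′ on the strand of the gene, with GCGTG in capitals. The Ptges window is chr2:30903298-30903547 on the minus strand, inside the outer bounds of the annotated gene, and its motif lies 165 to 161 bases before the RefSeq start. The Ptgs2 window is chr1:150099781-150100030 on the plus strand, and its motif lies 98 to 94 bases before the start.
Ptges: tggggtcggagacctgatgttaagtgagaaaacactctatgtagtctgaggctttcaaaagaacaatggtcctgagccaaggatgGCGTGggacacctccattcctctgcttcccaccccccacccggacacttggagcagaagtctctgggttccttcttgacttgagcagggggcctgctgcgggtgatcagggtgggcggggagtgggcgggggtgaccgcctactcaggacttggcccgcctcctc
Ptgs2: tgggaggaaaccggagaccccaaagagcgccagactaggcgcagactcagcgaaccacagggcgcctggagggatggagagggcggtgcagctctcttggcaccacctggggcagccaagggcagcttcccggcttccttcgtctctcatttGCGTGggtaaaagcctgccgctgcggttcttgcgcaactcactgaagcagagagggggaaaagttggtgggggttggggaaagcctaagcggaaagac
A match to 5 letters is a description of the window and not evidence of binding in these livers.

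Among the lipoxygenases Alox12 rose and Alox5 and Alox15 were not called. Alox12 (chr11:70241457-70255353, minus strand), the arachidonate 12-lipoxygenase best known from platelets, was at 0.708, 0.127, 0.247, 0.186 and 0.303 CPM in the vehicle livers. It was at 0.747, 0.316, 0.57, 0.87 and 0.877 CPM at 10 µg/kg and at 1.35, 0.801, 1.31, 0.891 and 0.882 CPM at 30 µg/kg. All 5 livers at 30 µg/kg were above the highest vehicle liver, replicate 1, which stood well above the other 4, and 3 of 5 were so at 10 µg/kg. The fitted difference on the log2 scale was 1.77 (SE 0.39, adjusted p = 0.000516 by edgeR) at 30 µg/kg and 1.15 (SE 0.40, adjusted p = 0.0429) at 10 µg/kg. The call at 30 µg/kg stood without any single liver. That at 10 µg/kg was lost, with adjusted p from 0.0771 to 0.128, without any 1 of vehicle replicates 2, 3, 4 and 5 and 10 µg/kg replicates 1, 4 and 5.

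Alox15 (chr11:70344152-70352031, minus strand), a lipoxygenase of macrophages and eosinophils, overlapped between vehicle and each dose. It was at 0, 0.191, 0.123, 0.124 and 0.253 CPM in vehicle and at 0.0451, 0.229, 0.601, 0.111 and 0.721 CPM at 30 µg/kg. At 30 µg/kg 2 livers, replicates 3 and 5, were above all vehicle livers, and the log2 fold change of 1.18 (SE 0.71) was not called (adjusted p = 0.221 by edgeR). The highest value in any liver, 0.889 CPM, was in replicate 1 of the 0.1 µg/kg group.

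The leukotriene branch comprised Alox5, Alox5ap and Ltc4s. Alox5ap (chr5:149264767-149288153, plus strand), whose product presents arachidonic acid to 5-lipoxygenase, was at 1.63, 0.89, 1.42, 0.743 and 1.72 CPM in vehicle. It was at 2.27, 2.16, 2.73, 2.17 and 2.77 CPM at 10 µg/kg and at 2.16, 2.06, 2.97, 1.45 and 3.05 CPM at 30 µg/kg. All 5 livers at 10 µg/kg were above every vehicle liver, whereas at 30 µg/kg replicate 4 lay within the vehicle range. The log2 fold change was 0.91 (SE 0.30, adjusted p = 0.0342 by edgeR) at 10 µg/kg and 0.86 (SE 0.31, adjusted p = 0.0305) at 30 µg/kg. The call at 30 µg/kg was lost, with adjusted p from 0.0777 to 0.0923, without any 1 of vehicle replicates 2 and 4 and 30 µg/kg replicates 3 and 5, and that at 10 µg/kg, with adjusted p from 0.0514 to 0.105, without any 1 of vehicle replicates 2, 3 and 4 and 10 µg/kg replicates 1, 3 and 5. The 3 µg/kg livers held 1.42 to 3.58 CPM, and the log2 fold change of 0.81 was not called (adjusted p = 0.1).

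Ltc4s (chr11:50236461-50238616, minus strand) encodes the enzyme that joins glutathione to leukotriene A4. It was at 0.425, 0.254, 0, 0.309 and 0.354 CPM in vehicle and at 0.857, 0.63, 0.672, 0.613 and 0.561 CPM at 30 µg/kg. All 5 livers at 30 µg/kg were above every vehicle liver. The exact two-sided permutation p for mean log2 CPM was 0.00794 (0.0159 after adjustment over the 10 members). Such a separation gives this smallest possible p by itself, so it adds nothing to the lack of overlap. Across all genes the log2 fold change of 1.31 (SE 0.55) was not called (adjusted p = 0.0661 by edgeR). Its exons overlap those of the counted antisense gene Gm26542 over 268 of 1014 bases, where reads counted without strand could not be assigned to either gene.

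Alox5 (chr6:116410077-116461178, minus strand), 5-lipoxygenase itself, was close to the limit of detection. It was at 0 CPM in 4 vehicle livers and at 0.0505 CPM, 1 read, in replicate 5, and at 0.0902, 0.172, 0.0354, 0 and 0.16 CPM at 30 µg/kg. With 8 reads in all against 1, the ratio of pooled CPM was 6.67, with an exact 95% interval from 0.894 to 296. The fitted log2 fold change of 2.31 was not called (adjusted p = 0.113 by edgeR), and a difference was not detectable at this depth.

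At 30 µg/kg 4 members lay above every vehicle liver in all 5 livers (Ltc4s, Alox12, Ptgs1 and Ptges) and 1 below (Ptgds), where 10.3% and 9.57% of all genes did so. At 10 µg/kg the counts were 2 above (Alox5ap and Ptgs1) and 1 below (Ptgds), against 8.1% and 6.13%. At 3 µg/kg they were 1 above (Ptgs1) and 1 below (Ptgds), against 4.6% and 3.36%. Among members just inside and outside the edgeR call at 30 µg/kg, Ptgs2 had an adjusted p of 0.0325 and Hpgds one of 0.0537.

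Per length of exon the cyclooxygenase Ptgs1 was the most abundant of the 10 RNAs in vehicle livers and at 30 µg/kg. In vehicle the mean level was 3.00 ± 0.43 CPM per kb (SD, n = 5) for Ptgs1, 2.47 ± 0.56 for Ptgds and 0.901 ± 0.31 for Alox5ap. Ltc4s, Hpgds, Alox12, Alox15 and Ptges followed at 0.265, 0.213, 0.0769, 0.0563 and 0.0263 CPM per kb, and Ptgs2 and Alox5 were lowest at 0.00269 and 0.00246. Neighbours in this order overlapped between livers apart from Ptgds and Alox5ap, and Alox5ap and Ltc4s. At 30 µg/kg Ptgs1 was at 5.99 CPM per kb, followed by Alox5ap at 1.65 and Ltc4s at 0.657. Hpgds at 0.422 CPM per kb, Ptgds at 0.401 and Ptges at 0.29 came next, with overlapping livers.

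**Figure D3:**
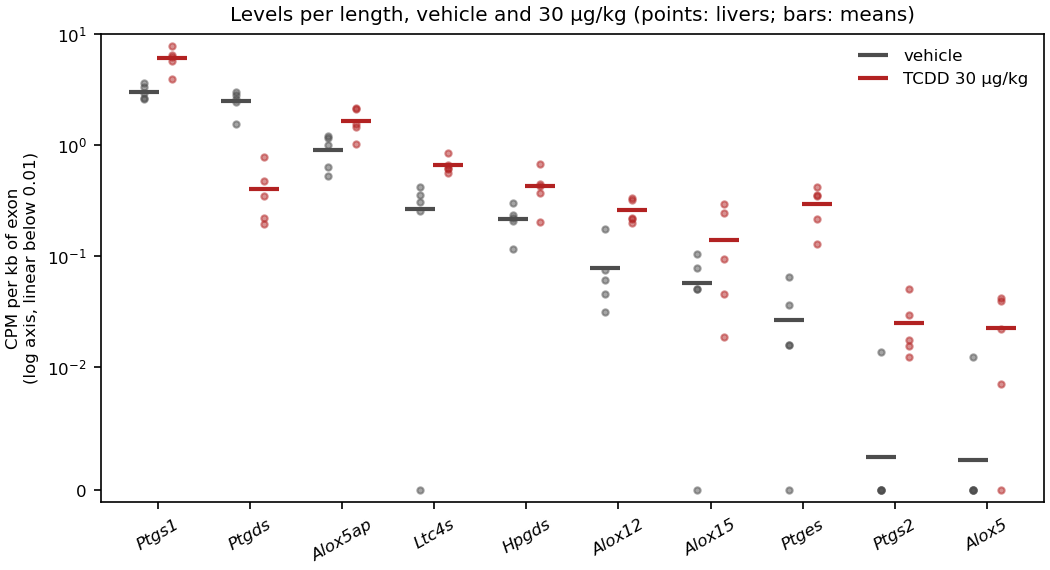
CPM per kb of exon (y axis, logarithmic above 0.01 and linear below) of the 10 eicosanoid genes, ordered by vehicle mean (x axis), in vehicle (grey) and at 30 µg/kg TCDD (red). Points are livers and bars are means of 5, and Ptgds moved from 2.47 to 0.401 CPM per kb while Ptges moved from 0.0263 to 0.29.

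Some markers of leukocytes and of other non-parenchymal cells were also higher at 30 µg/kg, where 15.5% of all genes were higher and 14.1% lower. At this dose edgeR called higher 4 of 5 pan-leukocyte markers, 5 of 12 Kupffer cell and macrophage markers, 4 of 7 tested neutrophil markers, 4 of 7 dendritic cell markers, 2 of 5 tested platelet markers, 2 of 8 T and NK cell markers, 2 of 5 B cell markers, 4 of 6 of sinusoidal endothelium, 4 of 8 of stellate cells and 0 of 6 of cholangiocytes, while of the 6 hepatocyte markers 0 were higher and 4 lower. The summed pan-leukocyte markers ran from 20.03 to 36.2 CPM in vehicle and from 34.5 to 80.9 CPM at 30 µg/kg, with overlap in replicate 4 of the latter. Summed macrophage markers ran from 216 to 329 CPM and from 207 to 546 CPM, and platelet markers from 1.98 to 3.5 CPM and from 3.61 to 4.99 CPM, and neutrophil markers from 0.954 to 2.07 CPM and from 3.45 to 10.5 CPM, the last 2 lists without overlap. Of the mast cell and basophil list only Kit was called, Cma1 was at 0 in all 5 vehicle livers, and Cpa3, Mcpt4, Tpsb2, Fcer1a, Ms4a2 and Mcpt8 had too few reads to be tested. Of the eosinophil list Siglecf was called and Ccr3 was not, and Prg2, Epx and Ear6 had too few reads to be tested.

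Livers with outlying leukocyte marker sums were picked after the data were seen. Their places for the eicosanoid genes are given here, and the same places were not counted over all genes. The pan-leukocyte markers summed in replicate 1 of the 3 µg/kg group to 104 CPM against 39.7 to 60.5 in the other 4 livers, and it was the highest of its group for 8 of the 10 members. Without it the log2 fold changes at 3 µg/kg were 0.68 for Ptgs1, 1.92 for Ptgs2 and 0.62 for Alox5ap, none called, and -1.96 for Ptgds (adjusted p = 0.000685 by edgeR). Replicate 4 of the 30 µg/kg group, with the lowest leukocyte markers of its group, was lowest for 6 of the 10 members and lay within the group for Ltc4s, Alox12, Alox15 and Ptgds. On the first principal component of the most variable genes, their main axis of variation, this liver was at 36.9 against 43.37 to 46.94 in its group. Some places rest on few reads, as for Alox5 with 0 reads in this liver and 1 in 3 µg/kg replicate 1. Without 0.01 µg/kg replicate 5 and 3 µg/kg replicate 1 together, 1, 3 and 6 members were higher at 3, 10 and 30 µg/kg, the sixth being Hpgds (adjusted p = 0.0313), and Ptgds was lower at all 3. The part of cell composition in these differences was not tested.

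**Figure D4:**
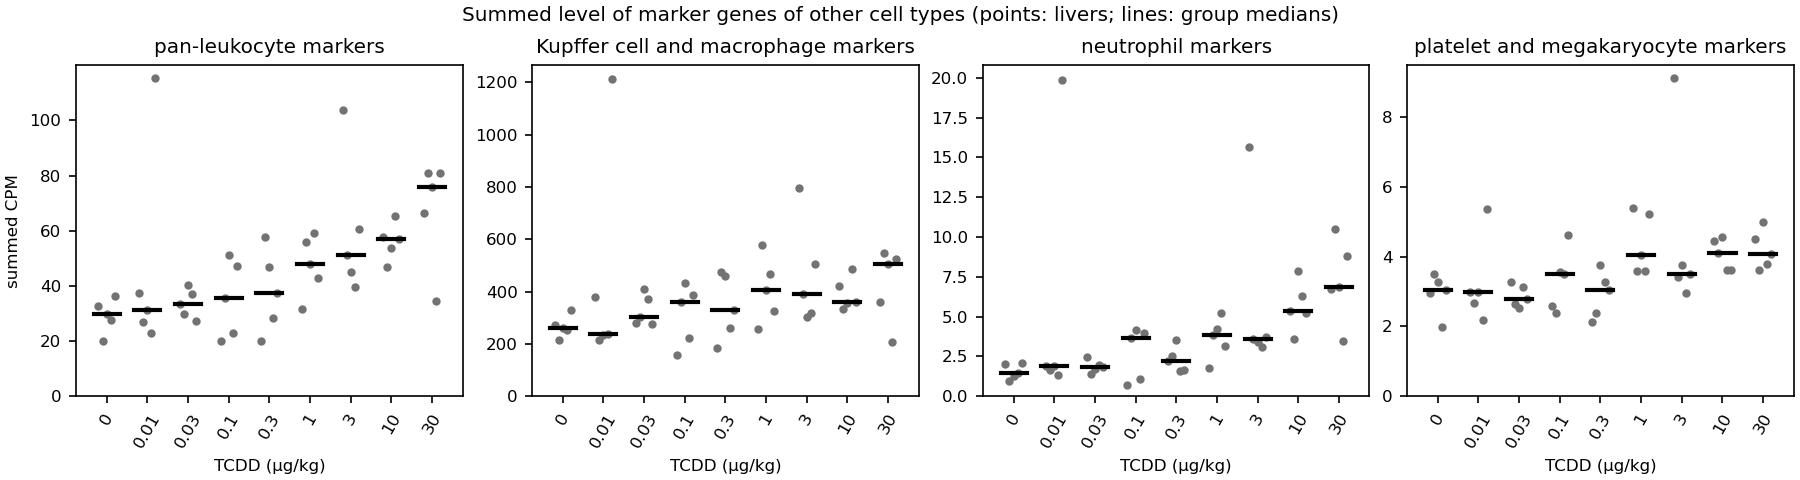
Summed CPM (y axis, linear, from 0) of pan-leukocyte, Kupffer cell and macrophage, neutrophil, and platelet and megakaryocyte markers in each of the 45 livers against TCDD dose in µg/kg (x axis, 0 is vehicle). Points are livers and lines are group medians, and the isolated points are replicate 5 at 0.01 µg/kg, with 1212 CPM of macrophage markers, and replicate 1 at 3 µg/kg.

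Other genes of the pathway were called in both directions at 30 µg/kg, where 15.5% of all genes were higher and 14.1% lower, and in several lists the counts lay near these shares. The median log2 fold change was 0.29 for genes of arachidonate release, 0.59 for other prostanoid synthases, -0.24 for other leukotriene enzymes, 0.86 for breakdown and transport, 0.01 for hydroxylases and epoxide hydrolases and 0.77 for receptors, against 0.02 for all genes. Of 12 tested genes listed under arachidonate release edgeR called 4 higher and 2 lower. This list also holds enzymes known for other substrates, such as Pla2g7, so its counts and median do not stand for arachidonate release alone. Pla2g7, a secreted phospholipase that cleaves platelet-activating factor, rose from 3.04 ± 0.67 to 10.3 ± 3.1 CPM (log2 fold change 1.76), Pla2g12a rose by 1.64, the cytosolic phospholipase Pla2g4a by 1.27 and the monoacylglycerol lipase Mgll by 1.09, while Pla2g16 fell by 0.97 and Pla2g6 by 0.49. Of 7 other prostanoid synthases 4 were higher and 1 lower. Thromboxane synthase Tbxas1 rose by 1.18 on the log2 scale, prostacyclin synthase Ptgis by 1.16, the carbonyl reductase Cbr1 by 0.83 and Akr1b3 by 0.59, and the cytosolic prostaglandin E synthase Ptges3 fell by 0.39. The third prostaglandin E synthase, Ptges2, was not called, at 15.3 ± 1.9 CPM in vehicle and 14.3 ± 1.9 CPM at 30 µg/kg (SD, n = 5).

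In the leukotriene list 0 of 5 tested genes were higher and 2 were lower at 30 µg/kg. Over all genes 15.5% were higher and 14.1% lower, shares to be set beside each list here. The 2 were Mgst3, a glutathione transferase (log2 fold change -0.74), and the leukotriene A4 hydrolase Lta4h (log2 fold change -0.24). Of 13 genes of breakdown and transport 7 were higher and 2 lower. The dipeptidases Dpep2 and Dpep1, which act on cysteinyl leukotrienes, rose by 3.44 and 1.96 on the log2 scale. Cyp4f18 rose by 2.16 and the prostanoid exporter Abcc4 by 2.01. Vehicle means of Dpep2 and Cyp4f18 were only 0.0471 and 0.177 CPM, so their fold changes rest on few reads. In the opposite direction the far more abundant Cyp4f14 fell by 1.18, from a mean of 250 to 110 CPM, and Ptgr2 fell by 0.29. The 13 hydroxylases and epoxide hydrolases divided into 3 higher (Cyp4a31, Cyp4f16, Ephx1) and 3 lower, of which Cyp4a14 fell from 976 ± 103 to 52.0 ± 24 CPM (SD, n = 5), and Cyp4f15 and the soluble epoxide hydrolase Ephx2 fell by 0.61 and 0.60. Members of the Cyp4a family are close copies, so the split of reads between them is uncertain. Of 11 tested receptors 3 were higher and 0 were lower. The 3 were the prostaglandin E2 receptor Ptger3 (log2 fold change 2.48) and the cysteinyl leukotriene receptors Cysltr2 (1.35) and Cysltr1 (0.88). Vehicle means of Ptger3 and Cysltr2 were 0.135 and 0.224 CPM, so their fold changes also rest on few reads.

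**Figure D5:**
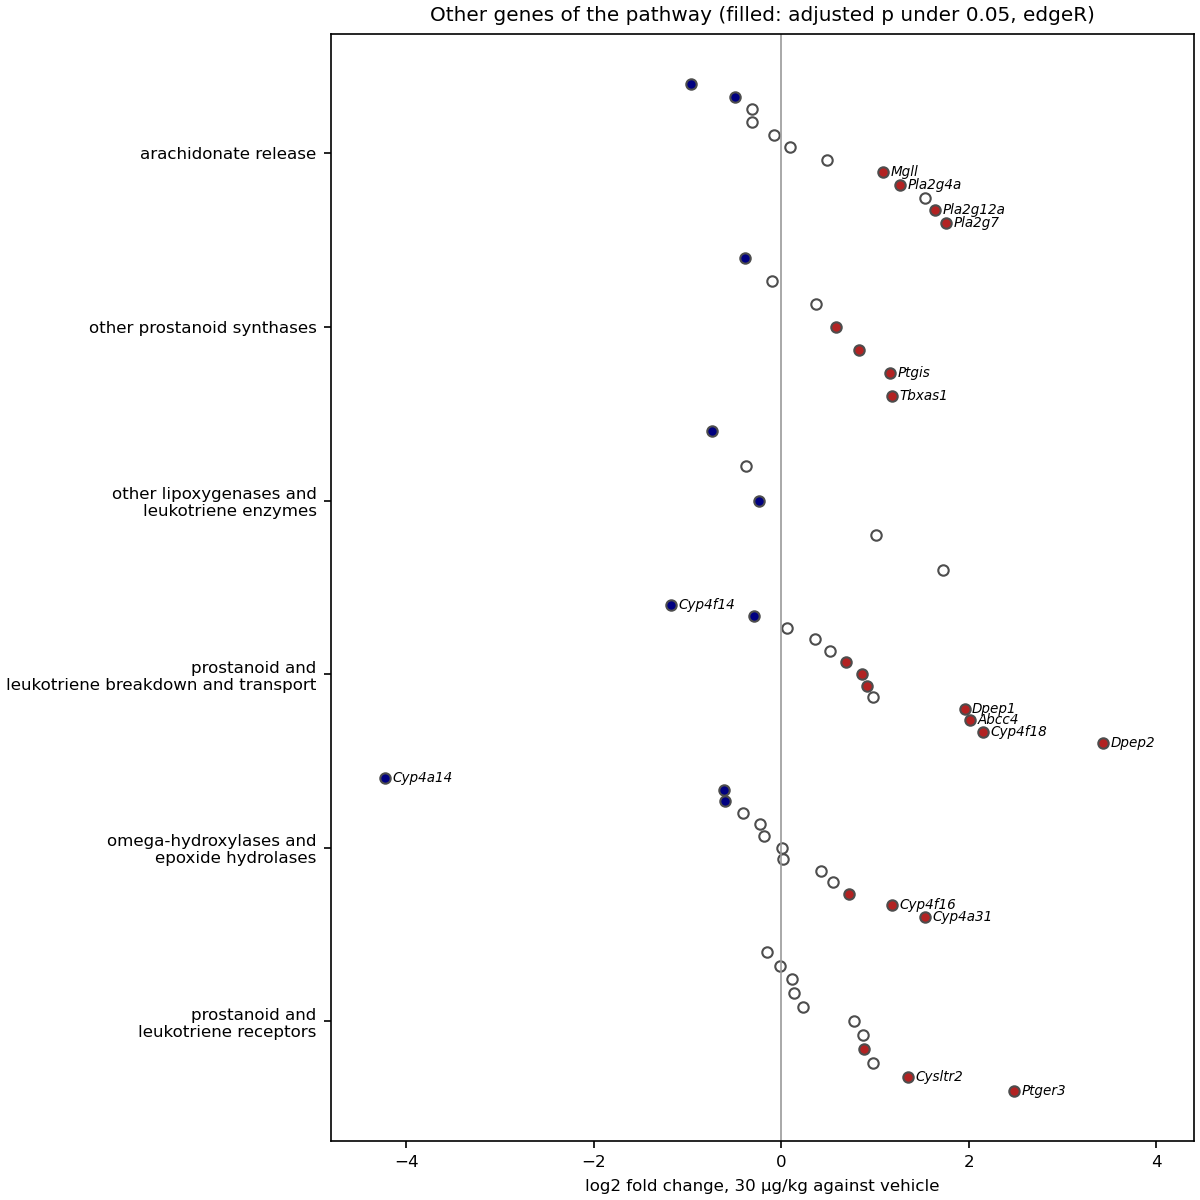
Log2 fold change at 30 µg/kg against vehicle (x axis) of the tested genes in 6 pathway lists (rows), 1 point per gene. Filled points had an edgeR adjusted p under 0.05 (red higher, blue lower). Called genes with a change over 1 on the log2 scale are named, from Cyp4a14 at -4.23 to Dpep2 at 3.44. The value of Dpep2 rests on few reads, with a vehicle mean of 0.0471 CPM.

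The genes whose levels ran most like each called member over the 45 livers were found by Pearson's r of log2 CPM, as a description without a test, since these livers share dose and group. For Ptgs1 they were Adgre5 (r = 0.953), Ctla2b (r = 0.945) and Msn (r = 0.943), and for Alox5ap they were Tmem173 (r = 0.865), Srgn (r = 0.863) and Ncf1 (r = 0.859). Adgre5, Srgn and Ncf1 are known from leukocytes, and for the other genes named here, those like Ptgds included, no cell type is given. Alox12 ran most like Arrb1 (r = 0.809), Dnase1l3 (r = 0.804) and Gm45837 (r = 0.804). Ptgds ran most like genes that fell with it, Entpd8 (r = 0.827), Nat8f1 (r = 0.816) and the major urinary protein gene Mup3 (r = 0.808). Ptges ran most like Eif4g3 (r = 0.818), Zfp872 (r = 0.804) and Tpm1 (r = 0.798), all of which were called higher at 30 µg/kg. Ptgs2, with its few reads, gave lower values, led by Ifit2 (r = 0.677), Fgl2 (r = 0.672) and Myof (r = 0.664).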

How the data were processed

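The authors prepared libraries with the Illumina TruSeq RNA kit, sequenced 50 base single reads, aligned them to GRCm38 with Bowtie and TopHat 1.4.1 and counted them per Ensembl gene with HTSeq 0.6.1. The deposited values are raw counts, 1 table per liver, without normalization. Every table was used, leaving 0 columns of samples unused. The 5 HTSeq summary lines stayed out of library sizes, and reads outside any gene made up 9.11 to 17.1% of unique reads. Samples were pooled at random for sequencing in sets that the labels do not give, so no within-pool comparison was made, and livers within a group are taken as separate animals.

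Genes with more than 4 reads in any liver were fitted together with edgeR 4.0.16 (R 4.3.3), with TMM factors, 1 coefficient per group and the quasi-likelihood test over all 45 livers. Standard errors are the absolute log2 fold change divided by the square root of F. P-values were adjusted within each dose over all genes. Ratios within livers used log2 CPM with a prior count of 2 and exact permutation tests. Gene positions, names and exon lengths are those of GENCODE M21 (GRCm38), and 1 of 179 listed symbols was not matched. The edgeR fit was tested on simulated data, with changes placed only in genes of higher counts. That test does not cover members with few reads. Alternatives were DESeq2 1.42.0, other scaling, filters and thinning, and each liver left out in turn.

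All 10 members are named. Up to 4 called genes per direction are named from each pathway list by size of change, and the 3 genes of highest r for each called member. Ptges2 and single markers were chosen after their values were seen. Members and lists were chosen with earlier results of these data known. Intervals and floors cover counting error only.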

Additional observations from a re-analysis of the deposited data

Results flagged for a closer look

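By Dixon's test, chance alone flags about 1 in 20 sets of normally distributed values. That rate does not hold for counts near 0, where a liver with reads among livers without any is always flagged. Single livers far from the other 4 of their group were found by this test in 15 of the 90 sets of 5 livers (10 genes in 9 groups). Of these, 8 rest on 1 or 2 reads in a liver whose companions had none: Alox5 in vehicle replicate 5 (0.0505 CPM), 0.03 µg/kg replicate 3 (0.0786 CPM) and 0.1 µg/kg replicate 5 (0.0379 CPM), and Ptgs2 in vehicle replicate 3 (0.0616 CPM), 0.01 µg/kg replicate 1 (0.0325 CPM), 0.03 µg/kg replicate 2 (0.044 CPM), 0.1 µg/kg replicate 4 (0.048 CPM) and 0.3 µg/kg replicate 2 (0.0432 CPM). Ptgs1 was at 31.9 CPM in 0.01 µg/kg replicate 5 against 9.26 to 13.0 CPM in the other 4 livers. In 3 µg/kg replicate 1, Ptgs2 was at 0.365 CPM against 0 to 0.0965 and Alox12 at 1.10 CPM against 0.258 to 0.497. In 0.03 µg/kg replicate 3, Alox5ap was at 2.20 CPM against 1.29 to 1.54 and Ptges at 0.472 CPM against 0 to 0.0772. Ltc4s was at 0.393 CPM in 1 µg/kg replicate 2 against 0.0762 to 0.145, and Alox12 at 0.734 CPM in 0.3 µg/kg replicate 2 against 0.235 to 0.311.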

How the results depend on the processing

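The 1 member called lower, Ptgds, at each of 3, 10 and 30 µg/kg and the count of 0 members from 0.01 to 1 µg/kg held under all alternatives, each liver left out included. The number higher at 3 µg/kg went from 1 to 0 without a filter on low counts and to 0 when a 2-fold change was also required, and after thinning of all libraries to the smallest it stayed at 1, with Alox5ap in place of Ptgs1. At 10 µg/kg it went from 3 to 1, and at 30 µg/kg from 5 to 3, when that fold was required and also with adjustment over all doses together. Leaving out single livers gave 0 to 2 at 3 µg/kg, from 1 to 4 at 10 µg/kg (1 without vehicle replicate 2, 3 or 4 or 10 µg/kg replicate 1) and from 3 to 6 at 30 µg/kg (3 without vehicle replicate 2 or 4). Without TMM factors the median of all genes moved to log2 fold changes of 0.10, 0.14 and 0.23 at the upper 3 doses, and the share of calls that were higher rose from 57.6% to 80.3%, from 53.2% to 77.6% and from 52.3% to 80.3%. Ltc4s (adjusted p = 0.0286) and Hpgds (0.0166) were then called at 30 µg/kg by edgeR. With a prior count of 0.5 the differences of the log2 ratios at 30 µg/kg turned to 1.06 for Ptgs2 to Ptgs1 (main -0.03, adjusted exact p = 0.897) and to 0.70 for Alox5 to Alox5ap (main -0.10, adjusted exact p = 0.897), so neither ratio is measured by these reads. Over livers left out these ranged from -0.19 to 0.14 and from -0.29 to 0.10, and Hpgds to Ptgds from 3.22 to 3.79 (adjusted exact p = 0.0476). Directions that turned were all of uncalled members: after thinning, Ltc4s (-0.15) and Alox15 (-0.078) at 3 µg/kg and Ptgs2 (-1.42) at 10 µg/kg, and without the 2 livers rich in leukocyte markers, an alternative chosen after seeing the data, Alox15 (-0.17) and Ptges (-0.14) at 3 µg/kg. With 1 liver left out, ranges that crossed 0 were -0.042 to 2.53 for Alox5, -0.16 to 0.48 for Alox15 and -0.13 to 0.86 for Ptges at 3 µg/kg and -0.21 to 1.97 for Ptgs2 at 10 µg/kg. Leaving single livers out aside, 256 alternative values of the members' log2 fold changes kept direction and call, 12 gained and 15 lost the call. Among those lost by edgeR were Ptgs1 at 3 µg/kg after thinning (adjusted p = 0.0661), Alox12 at 10 µg/kg in a fit of vehicle and that dose alone (0.0651), and Ptgs2 at 30 µg/kg after thinning (0.108). No paired analysis was made, since the groups hold separate mice. Depth limits Alox5 and Ptgs2 most. The cause of these changes was not tested.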
